A study of Homo sapiens with 12 samples.

Results

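The 10 genes described here are the ligands AREG, EREG, HBEGF, TGFA, BTC and NRG1, the receptors EGFR, ERBB2 and ERBB3, and the receptor inhibitor ERRFI1. They were taken by gene symbol from a count table of 28395 gene identifiers, and all 10 were found there. The 12 RNA-seq libraries came from BEAS-2B, a human bronchial epithelial cell line immortalised with viral genes, in 4 groups of 3. The groups were TGF-β1 followed by dexamethasone, dexamethasone alone, TGF-β1 alone, and an untreated control. All 4 groups had first been kept for 24 h in medium with neither serum nor steroid. TGF-β1, a cytokine known for inducing extracellular matrix and epithelial-to-mesenchymal transition, was given at 40 pM for 24 h. Dexamethasone, a synthetic ligand of the glucocorticoid receptor, was given at 30 nM for 4 h, and in the group with both agents these 4 h followed the TGF-β1 treatment. Any vehicle given to the control is not stated in the sources used here. The design calls the 3 libraries of a group biological triplicates of the 1 cell line, so p-values measure the spread between cultures of that line.

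The ligands of the epidermal growth factor (EGF) family are made as membrane-anchored precursors that metalloproteases of the ADAM family cut loose from the cell surface. AREG, EREG, HBEGF, TGFA and BTC bind EGFR, while NRG1 binds ERBB3 and ERBB4. Ligand binding pairs the receptors into dimers, in which ERBB2 is the preferred partner with no known ligand of its own, and starts RAS-ERK and PI3K signalling. ERRFI1, also called MIG6, binds the kinase domain of EGFR and blocks it. In airway epithelium this system is known for repair after injury, mucus production and remodelling.

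AREG and EREG lie next to each other on chromosome 4, with EPGN on one side and BTC on the other. In genome build GRCh38.p14, EREG spans 74365145 to 74388749 and AREG spans 74445136 to 74455005, with 56.4 kb and 0 protein-coding genes between them. BTC follows at 74744759 to 74794523, 290 kb beyond AREG. The others lie apart, HBEGF on chromosome 5 (140332843 to 140346603), TGFA on 2 (70447284 to 70553826), NRG1 on 8 (31639245 to 32774046), EGFR on 7 (55019017 to 55211628), ERBB2 on 17 (39688094 to 39728658), ERBB3 on 12 (56080108 to 56103505) and ERRFI1 on 1 (8011727 to 8026309). The 250 bases before the RefSeq start of AREG, EREG, HBEGF, EGFR and ERRFI1 are shown because these 5 members changed with dexamethasone in the tests below, AREG, EGFR and ERRFI1 upward and EREG and HBEGF downward. For EGFR the start at the 5′ end of the gene is used. Each is written 5′ to 3′ on the strand of its gene. Capitals mark matches to motifs named in the next paragraph.
AREG promoter, chr4:74444886-74445135, plus strand: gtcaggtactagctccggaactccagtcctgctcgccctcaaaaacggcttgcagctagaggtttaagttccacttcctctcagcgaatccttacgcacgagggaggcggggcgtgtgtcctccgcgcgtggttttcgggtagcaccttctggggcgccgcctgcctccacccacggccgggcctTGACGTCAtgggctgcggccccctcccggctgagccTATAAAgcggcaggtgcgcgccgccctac
EREG promoter, chr4:74364895-74365144, plus strand: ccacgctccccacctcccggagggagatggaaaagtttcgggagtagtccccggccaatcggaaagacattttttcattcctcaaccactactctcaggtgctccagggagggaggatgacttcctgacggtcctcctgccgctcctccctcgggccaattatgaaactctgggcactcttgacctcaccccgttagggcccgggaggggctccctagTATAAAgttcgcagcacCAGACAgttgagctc
HBEGF promoter, chr5:140346604-140346853, minus strand: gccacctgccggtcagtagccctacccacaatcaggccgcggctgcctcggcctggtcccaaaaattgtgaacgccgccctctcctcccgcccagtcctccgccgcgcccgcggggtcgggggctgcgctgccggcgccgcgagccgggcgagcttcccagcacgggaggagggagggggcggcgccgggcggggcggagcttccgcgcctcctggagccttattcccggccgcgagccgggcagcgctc
EGFR promoter, chr7:55018767-55019016, plus strand: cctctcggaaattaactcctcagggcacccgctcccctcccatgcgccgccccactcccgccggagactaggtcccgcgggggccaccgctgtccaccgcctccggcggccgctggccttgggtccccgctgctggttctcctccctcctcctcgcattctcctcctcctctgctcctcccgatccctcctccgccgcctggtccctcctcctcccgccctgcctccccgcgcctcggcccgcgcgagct
ERRFI1 promoter, chr1:8026310-8026559, minus strand: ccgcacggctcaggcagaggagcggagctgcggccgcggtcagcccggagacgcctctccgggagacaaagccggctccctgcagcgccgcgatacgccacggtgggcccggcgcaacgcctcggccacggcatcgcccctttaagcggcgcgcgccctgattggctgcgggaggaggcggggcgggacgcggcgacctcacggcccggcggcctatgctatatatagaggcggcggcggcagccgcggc

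RefSeq windows of 300 bases, from 250 before to 50 after the start, were searched on both strands for 8 of the 10 members. ERBB3 had no window in the source, and any member window on chromosome 8, which holds NRG1, was left out. The shares over all windows had no such omission. The motifs were AGAACA (a core hexamer of glucocorticoid receptor sites, in 14.8% of all 35116 windows), CAGACA (a SMAD element, 16.9%), GTCTAGAC (a SMAD palindrome, 0.202%) and TGANTCA (an AP-1 site, 7.71%). TATAAA (bound by the TATA-binding protein, 11.5%) and TGACGTCA (a cyclic AMP response element, 1.85%) were added after the windows had been read. None of these 6 motifs contains another. The AREG window held TGACGTCA with its first base at position -65 from the start and TATAAA at -29. The EREG window held TATAAA at -32 and CAGACA at -15. The HBEGF, BTC and ERRFI1 windows and the EGFR window at the 5′ end held none of the 6. A second RefSeq start of EGFR, inside the gene, had a window with AGAACA at 19, CAGACA at -67, TGANTCA at -232 and -136 and TATAAA at -146 and -36. The ERBB2 window held AGAACA at -1 and TGANTCA at -222, and 1 of the TGFA windows held AGAACA at -46 and CAGACA at 18 and 26. AGAACA was thus in 3 of the 10 member windows, in EGFR, ERBB2 and TGFA, and GTCTAGAC was in 0. These matches describe letters in short windows and are not evidence of binding.

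Levels are counts-per-million (CPM) on TMM-scaled library sizes, in the order replicate 1, 2, 3. Each difference is a log2 fold change fitted by edgeR's quasi-likelihood model, and SE is its standard error. P-values were adjusted by Benjamini-Hochberg over the 13469 genes that passed the filter on low counts, and a gene is called changed at an adjusted p under 0.05. Of the 10 members, 9 passed that filter and BTC did not. Total counts were at most 7008203 in replicates 1 and 2 and at least 17968961 in replicate 3 of each group, so low values in replicates 1 and 2 rest on few reads. Libraries of the same number deviated together in every pair of groups, and the value with replicate number as a block is given wherever it changed a call. FKBP5, a glucocorticoid receptor target, averaged 1472 ± 216 CPM with both agents, 2410 ± 147 CPM with dexamethasone, 97.5 ± 6.53 CPM with TGF-β1 and 161 ± 17.3 CPM in control (SD, n = 3 each).

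The growth protocol names the lung carcinoma line A549, whereas the other labels name BEAS-2B. All 7 of the listed airway epithelial markers averaged at least 1 CPM in each group. The summed level of 5 transcripts abundant in A549 cells was 2.74 to 11.3 CPM with both agents, 14.9 to 36.3 CPM with dexamethasone, 1.51 to 6.49 CPM with TGF-β1 and 13.0 to 39.7 CPM in control, with ALDH3A1 the highest of them at up to 36 CPM. The fibroblast markers DCN and LUM stayed at or below 0.309 CPM in all libraries. The 5 leukocyte markers summed to 14.3 to 19.4 CPM with both agents, 15.0 to 20.3 CPM with dexamethasone, 12.2 to 21.2 CPM with TGF-β1 and 18.3 to 20.9 CPM in control. Of these, CD68 stood at 10.1 to 19.5 CPM and CD14 at 1.09 to 6.83 CPM, while PTPRC, CD3E and LYZ stayed at or below 0.175 CPM. The fibroblast list as a whole summed to 504 to 826 CPM with both agents, 237 to 394 CPM with dexamethasone, 327 to 535 CPM with TGF-β1 and 219 to 345 CPM in control, nearly all of it THY1, a surface glycoprotein. The part of these levels in the results below was not tested. In bulk RNA, fewer cells expressing a gene and less RNA per cell cannot be told apart.

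Dexamethasone against control asked what the glucocorticoid did in cells not given TGF-β1. AREG, ERRFI1 and EGFR rose and EREG and HBEGF fell. That is 3 of 9 tested members higher, where 5.54% of all tested genes were called higher, and 2 of 9 lower, where 4.90% of all were called lower. The median log2 fold change was -0.08 over the 9 members and 0.004 over all tested genes. TGFA, NRG1, ERBB2 and ERBB3 did not pass the test.

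TGF-β1 against control asked what the growth factor did by itself. HBEGF rose, and AREG, EREG, ERBB3 and ERRFI1 fell. This was 1 of 9 members higher against 16.2% of all genes, and 4 of 9 lower against 16.6% of all genes. With the block 5 members were lower, EGFR being added, where 25.5% of all genes were. The median was -0.15 over the members and -0.009 over all tested genes.

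Cells given both agents were compared with each of the other groups. Against control, ERRFI1 rose and EREG and ERBB3 fell, so 1 of 9 members was higher (18.5% of all genes) and 2 of 9 were lower (18.1% of all genes). With the block they were 3 and 4, where 26.5% and 26.7% of all genes were called. Against TGF-β1 alone, which gives the dexamethasone effect in TGF-β1-treated cells, AREG and ERRFI1 rose and HBEGF fell, 2 of 9 higher (5.09% of all genes) and 1 of 9 lower (3.01%). With the block 3 members were lower, where 8.0% of all genes were. Against dexamethasone alone, which gives the TGF-β1 effect in dexamethasone-treated cells, HBEGF rose and AREG, EREG, EGFR, ERBB3 and ERRFI1 fell, 1 of 9 higher (15.9% of all genes) and 5 of 9 lower (16.4%). The count of 5 was 3 without dexamethasone replicate 1 and 3 without replicate 3 of the cells given both. With the block TGFA was lower as well, where 26.0% of all genes were lower. The interaction, the effect of dexamethasone in TGF-β1-treated cells less its effect in untreated ones, was called in 0 of 9 members upward (0.483% of all genes) and in 1 of 9 downward (0.401%). That member was EGFR. With the block 2 members were lower, EGFR and AREG, where 1.77% of all genes were.

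**Figure D1:**
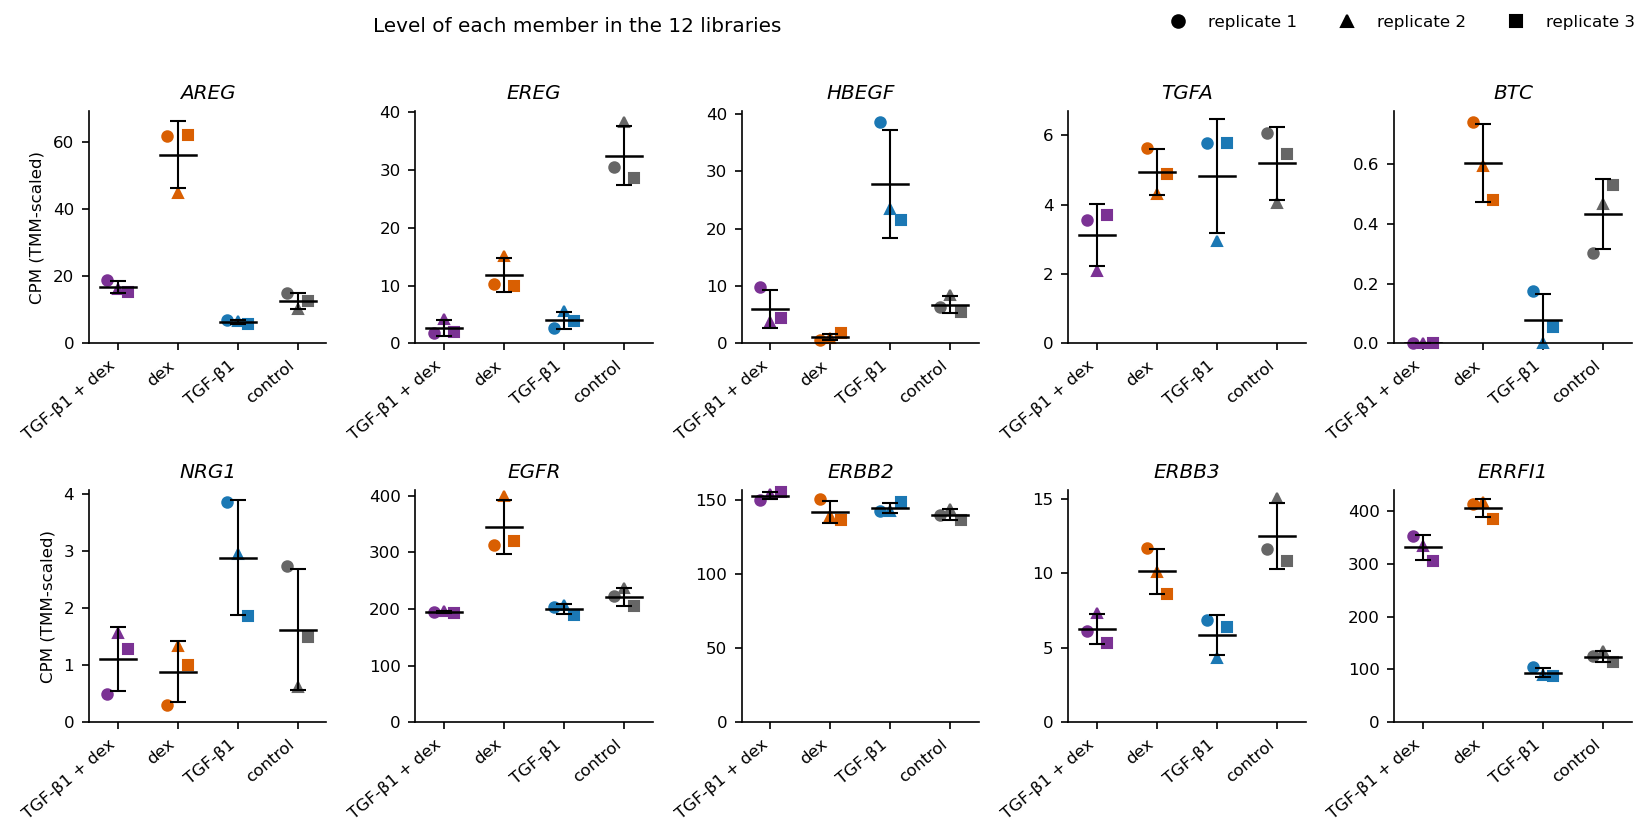
Level of each of the 10 members in CPM on TMM-scaled library sizes. Points are the 3 libraries of a group, with shape for replicate number, horizontal lines are group means and bars are 1 SD. AREG is highest with dexamethasone, EREG in control and HBEGF with TGF-β1, ERRFI1 is high in both dexamethasone groups, and BTC has no read with both agents. Each panel has its own axis from 0.

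Amphiregulin, the product of AREG, is a ligand of low affinity for EGFR that is abundant in airway epithelium. AREG stood at 18.8, 16.0 and 15.4 CPM with both agents, 61.7, 44.6 and 62.0 CPM with dexamethasone, 6.83, 6.65 and 5.72 CPM with TGF-β1, and 14.9, 10.2 and 12.6 CPM in control. No library of one group overlapped with a library of another. AREG thus rose with dexamethasone (56.1 ± 9.94 against 12.6 ± 2.31 CPM in control, SD, n = 3 each), by 2.16 on the log2 scale (SE 0.16, adjusted p = 4.11e-07). It fell with TGF-β1 (6.40 ± 0.597 CPM, SD, n = 3) by 1.00 on the log2 scale (SE 0.18, adjusted p = 0.000738).

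AREG rose with dexamethasone also in cells that had TGF-β1 (16.7 ± 1.81 against 6.40 ± 0.597 CPM with TGF-β1 alone, SD, n = 3 each; log2 fold change 1.40, SE 0.18, adjusted p = 0.000117). The combination left AREG below dexamethasone alone, by -1.76 on the log2 scale (SE 0.15, adjusted p = 1.33e-06). Against control, the cells given both stood at 0.40 (SE 0.17) with an adjusted p of 0.0728, and at 0.39 with an adjusted p of 0.0114 under the replicate block. Without control replicate 1 the value was 0.52 (adjusted p = 0.0364), and without dexamethasone replicate 2 it was 0.41 (adjusted p = 0.0389). The difference between the 2 dexamethasone effects was -0.76 (SE 0.24, adjusted p = 0.259), and under the block it was -0.77 with an adjusted p of 0.0133.

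Epiregulin, encoded by EREG, is a ligand of EGFR and ERBB4 and is made from the gene beside AREG. EREG stood at 1.78, 4.18 and 2.01 CPM with both agents, 10.3, 15.2 and 9.96 CPM with dexamethasone, 2.63, 5.57 and 3.81 CPM with TGF-β1, and 30.5, 38.3 and 28.7 CPM in control. The control libraries were all above the dexamethasone libraries, and these were above all 6 libraries with TGF-β1. The cells given both and the cells given TGF-β1 overlapped.

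EREG fell with dexamethasone (11.8 ± 2.90 against 32.5 ± 5.13 CPM in control, SD, n = 3 each) by 1.47 on the log2 scale (SE 0.24, adjusted p = 0.000686). TGF-β1 alone left 4.00 ± 1.48 CPM (SD, n = 3), or -3.01 on the log2 scale (SE 0.27, adjusted p = 1.61e-06). With both agents EREG was at 2.66 ± 1.32 CPM (SD, n = 3), -3.70 against control (SE 0.29, adjusted p = 3.93e-07) and -2.22 against dexamethasone alone (SE 0.31, adjusted p = 8.24e-05). Against TGF-β1 alone the log2 fold change was -0.69 (SE 0.34, adjusted p = 0.342), and -0.70 with an adjusted p of 0.0312 under the block. These values rest on 68 EREG reads over the 3 libraries with both agents, 380 with dexamethasone, 119 with TGF-β1 and 1042 in control.

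The neighbours AREG and EREG moved in opposite directions with dexamethasone and in the same direction with TGF-β1. A ratio of raw reads within a library does not depend on the scaling of that library. AREG had 10.5, 3.83 and 7.67 reads per EREG read with both agents, 5.96, 2.94 and 6.23 with dexamethasone, 2.6, 1.19 and 1.5 with TGF-β1, and 0.488, 0.267 and 0.439 in control. The control ratios lay below 1 and did not overlap with those of any other group, and replicate 2 was the lowest of its group in all 4 groups. An exact two-sided permutation test of 3 against 3 libraries cannot give a p below 0.1, so no p is given for the ratios.

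The other neighbour of AREG, BTC, encodes betacellulin, a ligand of EGFR and ERBB4. BTC had 0, 0 and 0 reads with both agents, 5, 4 and 10 reads with dexamethasone, 1, 0 and 1 reads with TGF-β1, and 2, 3 and 11 reads in control. It did not pass the filter and was not tested. Relative to control, the pooled ratio of BTC was 0.141 with TGF-β1 (95% interval 0.0157 to 0.598) and 1.17 with dexamethasone (0.568 to 2.42), where the intervals cover counting error only. Taking 3 reads over the group as the floor for a count of 0, BTC with both agents was 5.22-fold below dexamethasone and 4.48-fold below control. These folds treat the dexamethasone and control counts as exact and are not lower bounds. The 95% counting intervals reached 0.13 CPM with both agents. They were 0.333 to 0.863 CPM with dexamethasone and 0.271 to 0.77 CPM in control.

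HBEGF encodes heparin-binding EGF-like growth factor, a ligand of EGFR and ERBB4 whose membrane precursor is also the receptor for diphtheria toxin. HBEGF stood at 9.72, 3.66 and 4.44 CPM with both agents, 0.591, 0.893 and 1.72 CPM with dexamethasone, 38.6, 23.4 and 21.5 CPM with TGF-β1, and 6.37, 8.38 and 5.51 CPM in control. The TGF-β1 libraries were above and the dexamethasone libraries below every library of the other groups, while the cells given both overlapped with control.

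HBEGF rose with TGF-β1 (27.8 ± 9.36 against 6.75 ± 1.48 CPM in control, SD, n = 3 each), by 2.06 on the log2 scale (SE 0.34, adjusted p = 0.000528). It fell with dexamethasone (1.07 ± 0.586 CPM, SD, n = 3) by 2.36 on the log2 scale (SE 0.45, adjusted p = 0.00388), a level that rests on 46 reads over 3 libraries, 36 of them in replicate 3. Without dexamethasone replicate 3 the log2 fold change was -3.12. In cells given both, HBEGF averaged 5.94 ± 3.30 CPM (SD, n = 3). This was below TGF-β1 alone (log2 fold change -2.25, SE 0.35, adjusted p = 0.00104) and above dexamethasone alone (2.17, SE 0.47, adjusted p = 0.00352, and 2.93 without dexamethasone replicate 3). Against control the log2 fold change was -0.19 with a 95% interval from -1.02 to 0.63 (adjusted p = 0.73). Its sign turned positive when replicate 3 of the cells given both was left out (0.04) and when replicate 2 of all groups was left out (0.14). For HBEGF the interaction was 0.11 (95% interval -1.10 to 1.31, adjusted p = 1).

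TGFA encodes transforming growth factor alpha, a high-affinity ligand of EGFR. TGFA stood at 3.57, 2.09 and 3.71 CPM with both agents, 5.62, 4.31 and 4.88 CPM with dexamethasone, 5.78, 2.94 and 5.78 CPM with TGF-β1, and 6.06, 4.04 and 5.46 CPM in control. The cells given both lay below all libraries of control and of dexamethasone alone. Their log2 fold change was -0.69 against control (SE 0.28, adjusted p = 0.068), -0.61 against dexamethasone (SE 0.28, adjusted p = 0.118) and -0.61 against TGF-β1 (SE 0.28, adjusted p = 0.287). Under the replicate block the 3 values were -0.68, -0.59 and -0.62 with adjusted p of 0.00747, 0.0206 and 0.0411. Without TGF-β1 replicate 2, the value against control was -0.69 (adjusted p = 0.0346), without control replicate 2 it was -0.81 (adjusted p = 0.0483), and without replicate 2 of all groups it was -0.63 (adjusted p = 0.0391). With library size alone the value was -0.95 against control (adjusted p = 0.00959) and -0.81 against dexamethasone (adjusted p = 0.0259). TGF-β1 alone and dexamethasone alone gave -0.08 each (95% intervals -0.65 to 0.49 and -0.65 to 0.48).

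NRG1 encodes neuregulin 1, a ligand of ERBB3 and ERBB4. NRG1 stood at 0.486, 1.57 and 1.28 CPM with both agents, 0.296, 1.34 and 1.01 CPM with dexamethasone, 3.86, 2.94 and 1.85 CPM with TGF-β1, and 2.73, 0.621 and 1.5 CPM in control. With TGF-β1 alone all 3 libraries were above those with both agents and above those with dexamethasone alone, and they overlapped with control. No comparison of NRG1 passed the test. The smallest adjusted p was 0.206, for both agents against TGF-β1 alone (log2 fold change -1.23, 95% interval -2.31 to -0.14). The counts behind these levels were 2 to 33 reads a library.

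**Figure D2:**
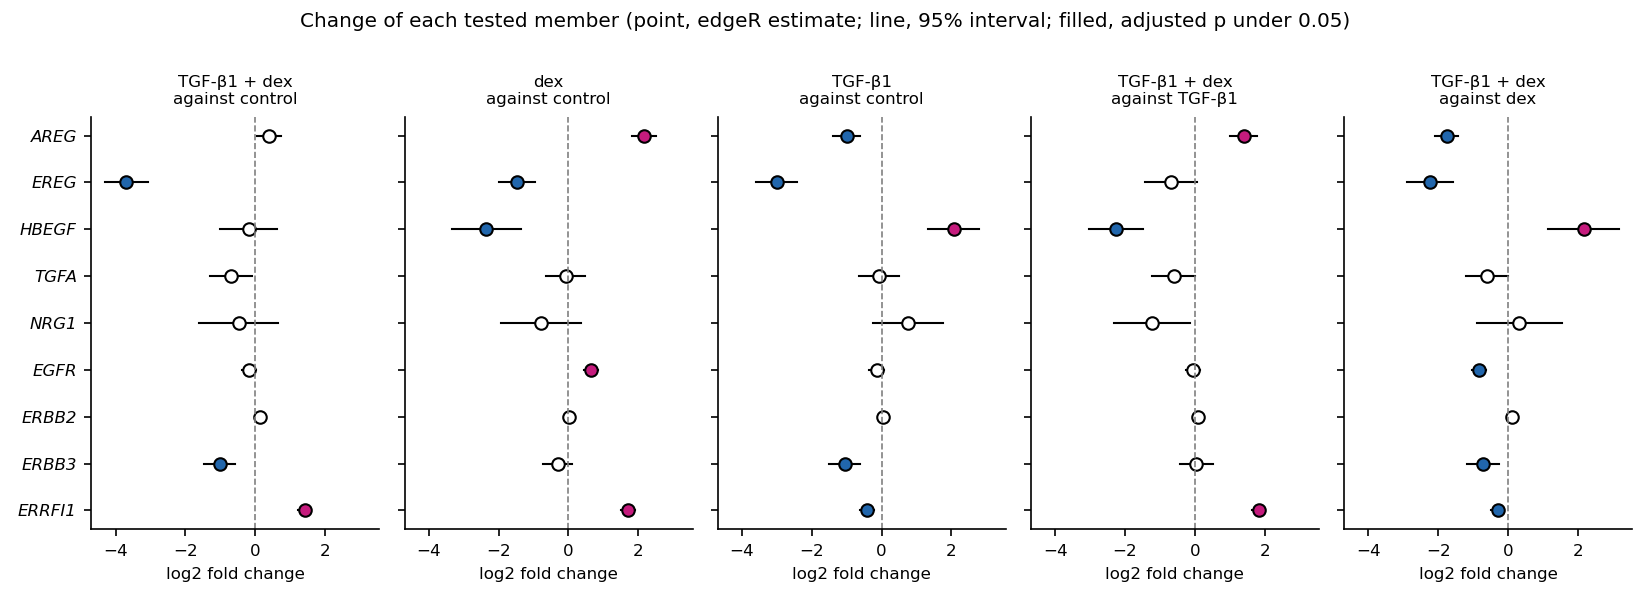
Log2 fold change of the 9 tested members in 5 comparisons (x axis), with 95% intervals as lines. Filled points had an adjusted p under 0.05 by edgeR, magenta for higher and blue for lower in the group named first. AREG and ERRFI1 are filled to the right with dexamethasone both with and without TGF-β1 (AREG 1.40 and 2.16, ERRFI1 1.83 and 1.71), and HBEGF is filled to the right with TGF-β1 both with and without dexamethasone (2.17 and 2.06).

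To set the 6 ligands side by side, levels were divided by the exonic length of each gene in kilobases. The length is the union of exons over a gene's transcripts in the basic GENCODE annotation. It can exceed that of the transcripts in these cells. AREG made up 78.2% of the summed ligand level with both agents (range 74.3 to 80.9), 91.0% with dexamethasone (88.0 to 92.6), 27.7% with TGF-β1 (23.0 to 31) and 47.2% in control (39.1 to 52.3). HBEGF made up 13.8% with both (9.6 to 20), 0.903% with dexamethasone (0.462 to 1.33), 60.3% with TGF-β1 (56.6 to 67.5) and 13.2% in control (11.4 to 16.6). EREG made up 3.45% with both (1.89 to 5.67), 5.39% with dexamethasone (3.98 to 8.03), 4.85% with TGF-β1 (2.38 to 6.97) and 32.9% in control (28.8 to 39.2). AREG therefore had the highest share in all libraries with dexamethasone, HBEGF in all 3 with TGF-β1 alone, and in control AREG led in replicates 1 and 3 while EREG was level with it in replicate 2 (39.1% and 39.2%). The summed level of the 6 ligands was 17.3 ± 2.68 CPM per kilobase with both agents, 49.6 ± 7.53 with dexamethasone, 19.0 ± 4.30 with TGF-β1 and 21.4 ± 1.39 in control (SD, n = 3 each). The dexamethasone libraries were above all others, and the ranges with both agents and with TGF-β1 overlapped with each other and with control.

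**Figure D3:**
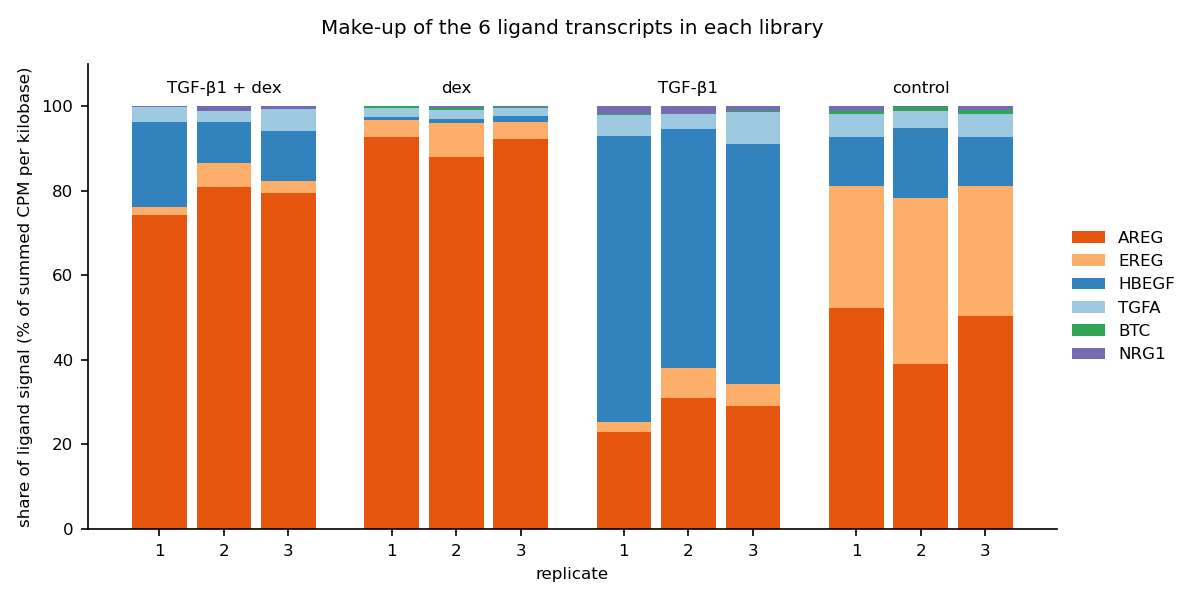
Share of each ligand in the summed CPM per kilobase of the 6 ligands, in percent, for each of the 12 libraries. AREG fills 88.0% to 92.6% of the bars with dexamethasone, HBEGF 56.6% to 67.5% of those with TGF-β1, and EREG is above 28% in the 3 control bars alone.

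HBEGF had 0.517, 0.228 and 0.289 reads per AREG read with both agents, 0.00959, 0.0200 and 0.0278 with dexamethasone, 5.64, 3.51 and 3.75 with TGF-β1, and 0.429, 0.818 and 0.437 in control. The ratio was above 1 in the TGF-β1 libraries and below 1 in the other 9. The cells given both overlapped with control.

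**Figure D4:**
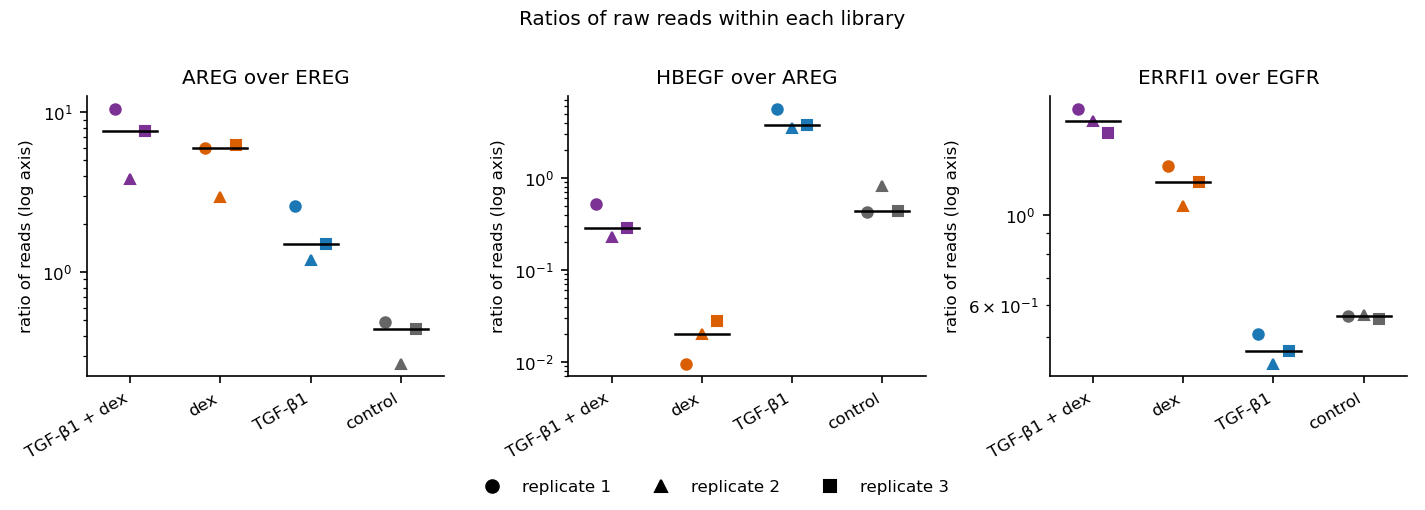
Ratio of raw reads of 2 genes within each library on log axes, for AREG over EREG, HBEGF over AREG and ERRFI1 over EGFR. Points are the 3 libraries of a group, with shape for replicate number, and lines are group medians. AREG over EREG is below 1 only in control, HBEGF over AREG is above 1 only with TGF-β1 alone, and ERRFI1 over EGFR is above 1 only in the 2 groups with dexamethasone.

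EGFR, the receptor of EGF, TGFA and amphiregulin, had its RNA raised by dexamethasone when TGF-β1 was absent. EGFR stood at 195, 196 and 193 CPM with both agents, 313, 400 and 321 CPM with dexamethasone, 203, 208 and 189 CPM with TGF-β1, and 223, 237 and 205 CPM in control. The 3 dexamethasone libraries were above the other 9, which all lay between 189 and 237 CPM. The log2 fold change with dexamethasone was 0.64 (SE 0.09, adjusted p = 0.000297; 345 ± 47.9 against 221 ± 16.1 CPM in control, SD, n = 3 each). In cells with TGF-β1 the dexamethasone effect was -0.04 (95% interval -0.24 to 0.16, adjusted p = 0.927). The difference between these 2 effects was -0.68 (SE 0.13, 95% interval -0.96 to -0.39, adjusted p = 0.0287), and under the replicate block it was -0.67 with an adjusted p of 2e-05.

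That difference in the EGFR response kept its sign in each omission of a library, at -0.73 to -0.54. Its adjusted p, however, ran from 0.0358 to 0.101 over these omissions and was above 0.05 in 7 of 12. Those 7 were control replicates 1 (0.0939) and 3 (0.101), TGF-β1 replicates 1 (0.08) and 2 (0.0545), dexamethasone replicate 2 (0.0503), and replicates 1 (0.0711) and 3 (0.0717) of the cells given both. EGFR fell in cells given both against dexamethasone alone, by -0.83 on the log2 scale (SE 0.09, adjusted p = 1.45e-05). TGF-β1 alone gave -0.15 (SE 0.09, adjusted p = 0.261), -0.14 with the block (adjusted p = 0.0499), and -0.35 with scaling by library size alone (adjusted p = 0.0108). Both agents against control gave -0.19 (SE 0.09, adjusted p = 0.141), -0.18 with the block (adjusted p = 0.0154) and -0.45 with library size alone (adjusted p = 0.00207).

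**Figure D5:**
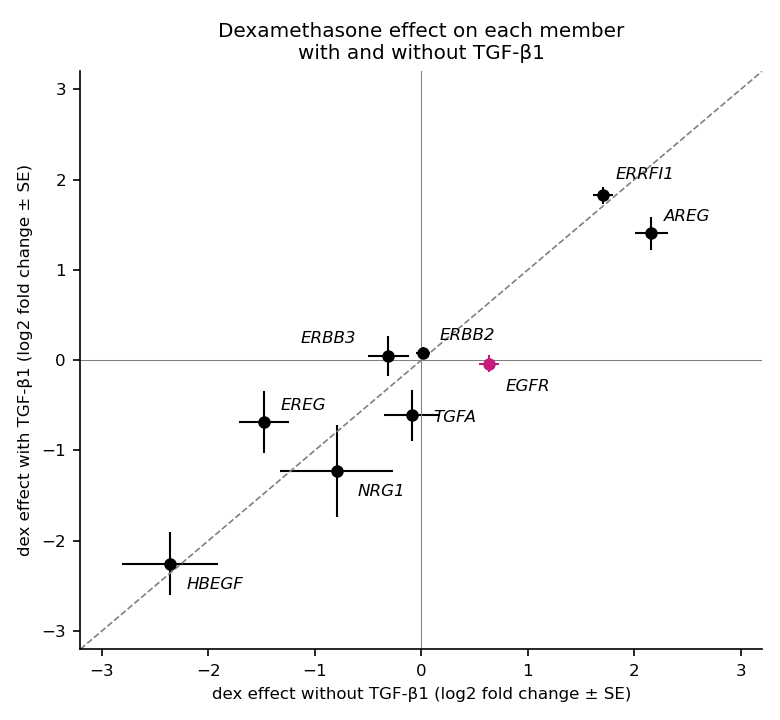
Dexamethasone effect on each of the 9 tested members, as log2 fold change ± SE, without TGF-β1 on the x axis and with TGF-β1 on the y axis. The dashed line marks equal effects. EGFR, in magenta, is the member whose 2 effects differed in the test without the replicate block (-0.04 with and 0.64 without TGF-β1), while ERRFI1 lies near the line (1.83 with and 1.71 without).

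ERBB2, the co-receptor, varied least among the 9 tested members. ERBB2 stood at 150, 154 and 155 CPM with both agents, 151, 139 and 136 CPM with dexamethasone, 143, 143 and 149 CPM with TGF-β1, and 140, 144 and 137 CPM in control. The cells given both lay above those given TGF-β1 and above control, and the other groups overlapped. No comparison passed the test, and the log2 fold changes were 0.13 for both agents (95% interval -0.01 to 0.27), 0.02 for dexamethasone (-0.12 to 0.16) and 0.05 for TGF-β1 (-0.09 to 0.19), each against control. Under the block the first was 0.13 with an adjusted p of 0.0416. These signs depend on the scaling, since with library size alone the 3 values were -0.13, -0.04 and -0.16. That scaling moved the median over all tested genes to -0.271 for both agents, -0.052 for dexamethasone and -0.217 for TGF-β1, so ERBB2 remained above the median gene by it.

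ERBB3, a receptor with little kinase activity that binds neuregulins and passes signals to PI3K, fell with TGF-β1. ERBB3 stood at 6.16, 7.31 and 5.29 CPM with both agents, 11.7, 10.1 and 8.62 CPM with dexamethasone, 6.83, 4.33 and 6.39 CPM with TGF-β1, and 11.7, 15.1 and 10.8 CPM in control. All 6 libraries with TGF-β1 lay below all 6 without it. The log2 fold change was -1.06 for TGF-β1 against control (SE 0.21, adjusted p = 0.00119; 5.85 ± 1.34 against 12.5 ± 2.24 CPM, SD, n = 3 each) and -1.02 for both agents against control (SE 0.21, adjusted p = 0.00148). Both agents against dexamethasone alone gave -0.71 (SE 0.21, adjusted p = 0.0184), with an adjusted p of 0.0748 without dexamethasone replicate 1 and 0.101 without replicate 3 of the cells given both. Dexamethasone alone gave -0.31 (95% interval -0.72 to 0.11, adjusted p = 0.457).

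ERRFI1, the inhibitor of EGFR, had the largest rise of the 9 tested members in cells given both agents. ERRFI1 stood at 353, 334 and 306 CPM with both agents, 413, 418 and 386 CPM with dexamethasone, 104, 89.2 and 87.7 CPM with TGF-β1, and 125, 134 and 113 CPM in control. No library of one group overlapped with a library of another. Dexamethasone raised ERRFI1 to 406 ± 17.2 CPM, against 124 ± 10.5 CPM in control (SD, n = 3 each), 1.71 on the log2 scale (SE 0.09, adjusted p = 3.15e-08). In TGF-β1-treated cells it raised ERRFI1 to 331 ± 23.9 CPM, against 93.5 ± 8.77 CPM with TGF-β1 alone (SD, n = 3 each), 1.83 on the log2 scale (SE 0.09, adjusted p = 2.83e-08). The difference between these effects was 0.12 (95% interval -0.15 to 0.39, adjusted p = 1).

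TGF-β1 lowered ERRFI1 by a smaller amount, -0.41 on the log2 scale against control (SE 0.09, adjusted p = 0.0031). With dexamethasone present the TGF-β1 effect was -0.29 (SE 0.09, adjusted p = 0.0204). That call was lost without dexamethasone replicate 1 (adjusted p = 0.0735), dexamethasone replicate 2 (0.0787) or replicate 3 of the cells given both (0.0869), and the log2 fold change was then -0.27, -0.26 and -0.24. It was also lost without replicate 2 of all groups (log2 fold change -0.28, adjusted p = 0.0658).

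Set against the receptor it blocks, ERRFI1 had 1.82, 1.70 and 1.59 reads per EGFR read with both agents, 1.32, 1.05 and 1.2 with dexamethasone, 0.509, 0.430 and 0.463 with TGF-β1, and 0.563, 0.568 and 0.555 in control. The 4 groups did not overlap. The ratio exceeded 1 in all 6 dexamethasone libraries and in none of the other 6, and it was higher with both agents than with dexamethasone alone, where EGFR was also raised. Per kilobase of exon, ERRFI1 was the most abundant of the 10 transcripts with both agents (79.4 CPM per kilobase), with dexamethasone (97.3) and in control (29.8). With TGF-β1 alone ERBB2 was first (25.5) and ERRFI1 second (22.4). In control the order after ERRFI1 was ERBB2 (24.7), EGFR (19.5), AREG (10.1), EREG (7.04), HBEGF (2.83), ERBB3 (1.68), TGFA (1.08), NRG1 (0.175) and BTC (0.154). Of those neighbours in control, AREG and EREG overlapped over libraries, as did NRG1 and BTC. With dexamethasone AREG (45.2) stood second, above EGFR (30.4) and ERBB2 (25.1), with no overlap between libraries.

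The remaining EGF family genes were scarce. ERBB4, the fourth receptor, had 5 reads over the 3 libraries with both agents, 5 with dexamethasone, 7 with TGF-β1 and 3 in control. EGF itself had 4, 2, 2 and 2 reads in the same order of groups, and NRG3 had 0, 2, 2 and 6. EPGN, the outer neighbour of EREG, had 11 reads with both, 26 with dexamethasone, 7 with TGF-β1 and 19 in control. NRG4 had 14, 23, 27 and 13. NRG2, the 1 gene of these 6 that passed the filter, had 9 reads with both, 74 with dexamethasone, 16 with TGF-β1 and 61 in control. NRG2 fell with TGF-β1 against control (log2 fold change -1.88, SE 0.55, adjusted p = 0.017) and with both agents against dexamethasone (-2.62, SE 0.60, adjusted p = 0.00411), and the call against control was lost without control replicate 2.

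Among 14 genes of ligand shedding and trafficking, 3 rose and 3 fell with TGF-β1 against control, near the 16.2% and 16.6% of all tested genes. With the replicate block 5 rose and 4 fell, against 24.6% and 25.5% of all genes. With library size alone 2 rose and 5 fell, against 1251 and 4332 of the 13469 genes. With TMM and no block their median log2 fold change was 0.01. ADAM19, a metalloprotease that can cut neuregulin precursors, rose to 244 ± 27.1 CPM against 28.9 ± 4.12 CPM in control (SD, n = 3 each; log2 fold change 3.07, SE 0.15, adjusted p = 7.75e-09). ADAM12, a metalloprotease able to shed HBEGF, rose to 495 ± 68.0 CPM against 72.3 ± 8.95 CPM (SD, n = 3 each; 2.78, SE 0.17, adjusted p = 8.86e-08). CD9, a tetraspanin that associates with the HBEGF precursor, fell by 1.33 on the log2 scale (SE 0.12, adjusted p = 1.77e-06), and ADAM15 fell by 0.98 (SE 0.14, adjusted p = 0.000114). With dexamethasone 2 rose and 2 fell, where 5.54% and 4.90% of all genes did. With the block 4 rose and 4 fell, against 10.8% and 11.4% of all genes. The median without the block was -0.13. The number rising was 1 without any 1 of the 3 control libraries or dexamethasone replicates 2 or 3. ADAM19 fell by 1.13 (SE 0.16, adjusted p = 0.000178), RHBDF1, which escorts ADAM17, fell by 0.67 (SE 0.10, adjusted p = 0.000481), and TIMP3, a metalloprotease inhibitor, rose by 0.91 (SE 0.13, adjusted p = 0.00029). In cells with TGF-β1, dexamethasone lowered ADAM19 by 0.91 (SE 0.13, adjusted p = 0.00038) and raised TIMP3 by 0.72 (SE 0.14, adjusted p = 0.0035).

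Among 24 receptor adaptors and proximal signalling genes, 8 rose and 0 fell with dexamethasone against control, where 5.54% and 4.90% of all genes did. With the block 10 rose and 0 fell, against 10.8% and 11.4% of all genes. The median without the block was 0.06. The number rising was 4 without control replicate 3, and 5 without control replicate 2 or dexamethasone replicates 1 or 2. In cells with TGF-β1 dexamethasone raised 4 and lowered 0, where 5.09% and 3.01% of all genes were called. With the block it raised 11 and lowered 0, against 9.47% and 8.0% of all genes. Without the block it raised 2 when TGF-β1 replicate 2 or replicate 1 or 3 of the cells given both was left out. PIK3R1, the regulatory subunit of PI3K, rose to 157 ± 17.2 CPM with dexamethasone against 31.9 ± 3.06 CPM in control (SD, n = 3 each; log2 fold change 2.29, SE 0.14, adjusted p = 1.25e-07). It rose by 2.38 in cells with TGF-β1 (SE 0.15, adjusted p = 1.5e-07). EPS8, a substrate of the EGFR kinase, rose with dexamethasone by 1.26 in cells with and 0.88 in cells without TGF-β1 (SE 0.09 each, adjusted p = 4.91e-07 and 6.59e-06), and fell with TGF-β1 alone by 0.68 (SE 0.09, adjusted p = 4.7e-05). SOS2, an activator of RAS, rose with dexamethasone by 0.84 (SE 0.15, adjusted p = 0.00163). With TGF-β1 against control 4 genes of the list rose and 4 fell, near the 16.2% and 16.6% of all genes. With the block 7 rose and 6 fell, against 24.6% and 25.5% of all genes. With library size alone 2 rose and 7 fell, against 1251 and 4332 of the 13469 genes. With TMM and no block the median was -0.01. The number falling was 1 without control replicate 3, and 2 without TGF-β1 replicates 1 or 2.

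Among 19 receptor inhibitors and genes of receptor down-regulation, 4 rose and 2 fell with TGF-β1, near the 16.2% and 16.6% of all genes. With the block 5 rose and 3 fell, against 24.6% and 25.5% of all genes. With library size alone 1 rose and 4 fell, against 1251 and 4332 of the 13469 genes. With TMM and no block the median was 0.03. Leaving out TGF-β1 replicate 1 or control replicate 3 gave 2 that rose and 1 that fell. Leaving out TGF-β1 replicate 2 or control replicate 1 gave 1 that fell. With dexamethasone 0 rose and 3 fell, where 5.54% and 4.90% of all genes did. With the block 1 rose and 5 fell, against 10.8% and 11.4% of all genes. Without the block the median was -0.04, and 1 fell when control replicate 1 or dexamethasone replicate 2 or 3 was left out. LRIG1 and LRIG3 are related membrane proteins, of which LRIG1 is known to promote degradation of EGFR. LRIG3 rose with TGF-β1 to 160 ± 15.4 CPM against 46.2 ± 2.75 CPM in control (SD, n = 3 each; log2 fold change 1.78, SE 0.09, adjusted p = 1.15e-08), whereas LRIG1 fell to 70.8 ± 29 CPM against 177 ± 21.8 CPM (SD, n = 3 each; -1.33, SE 0.28, adjusted p = 0.00388). Dexamethasone lowered LRIG3 by 0.51 (SE 0.10, adjusted p = 0.0022) and LRIG1 by 1.18 (SE 0.28, adjusted p = 0.018), and the call for LRIG1 was lost in 4 omissions (adjusted p up to 0.089). In cells with TGF-β1 dexamethasone raised 2 and lowered 1 of the 19, where 5.09% and 3.01% of all genes were called. With the block it raised 2 and lowered 2, against 9.47% and 8.0% of all genes. Without the block PTPRJ rose by 0.98 (SE 0.16, adjusted p = 0.00117) and PTPN1 by 0.78 (SE 0.11, adjusted p = 0.000305). LRIG3 fell by 0.79 (SE 0.09, adjusted p = 3.46e-05).

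The list of 20 genes known as outputs of EGFR and ERK had 9 lower and 2 higher with dexamethasone against control. Of all genes, 4.90% were lower and 5.54% higher. With the block 12 of the list were lower and 3 higher, against 11.4% lower and 10.8% higher of all genes. The median without the block was -0.60. IER3, an immediate early gene, fell to 5.76 ± 0.988 CPM against 63.8 ± 15.5 CPM in control (SD, n = 3 each; log2 fold change -3.50, SE 0.29, adjusted p = 6.41e-06). SPRY1, a feedback inhibitor of receptor tyrosine kinase signalling, fell by 2.29 (SE 0.33, adjusted p = 0.000281), and FOSL1, a subunit of AP-1, fell by 1.86 (SE 0.26, adjusted p = 0.000232). The 2 that rose were SPRY2, another member of the SPRY1 family (1.98, SE 0.22, adjusted p = 3.16e-05), and FOS (2.59, SE 0.46, adjusted p = 0.00194). FOS was low throughout, at 12.4 ± 5.99 CPM with dexamethasone against 1.88 ± 1.12 CPM in control (SD, n = 3 each).

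With TGF-β1 against control 4 genes of this output list rose and 5 fell, where 16.2% and 16.6% of all genes did. The median was -0.34. With the block 5 rose and 8 fell, against 24.6% and 25.5% of all genes. With library size alone 3 rose and 8 fell, against 1251 and 4332 of the 13469 genes. By DESeq2 4 rose and 8 fell, while about as many of all genes were called as by edgeR. The number of the list that fell thus depended on the fit. IER3 rose by 1.47 (SE 0.23, adjusted p = 0.000439) and PLAUR, the urokinase receptor, by 1.33 (SE 0.23, adjusted p = 0.00096). SPRY1 fell by 3.47 (SE 0.38, adjusted p = 1.01e-05), DUSP5, a nuclear ERK phosphatase, by 2.09 (SE 0.25, adjusted p = 4.56e-05) and PHLDA1 by 1.54 (SE 0.24, adjusted p = 0.000456). In cells with TGF-β1 dexamethasone lowered 5 and raised 0 of the 20, where 3.01% of all genes were lower and 5.09% higher. With the block it lowered 7 and raised 4, against 8.0% lower and 9.47% higher of all genes. The median without the block was -0.07. The number lowered was 3 without the filter on low counts and 2 when only the groups compared were fitted, and over single omissions it ran from 2, without TGF-β1 replicate 1, to 7. IER3 fell there by 2.71 (SE 0.24, adjusted p = 1.92e-05), IER2 by 1.06 (SE 0.11, adjusted p = 1.61e-05) and PLAUR by 1.02 (SE 0.23, adjusted p = 0.0157). The call for PLAUR was lost in 2 omissions. IER3 thus had the direction of HBEGF in these 3 comparisons, as did PLAUR and IER2.

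For each of the 9 tested members, the 3 genes whose log2 CPM followed it most closely over the 12 libraries were taken from 12442 genes, or 12443 for NRG1. The libraries fall into 4 treatment groups, so these Pearson coefficients mostly describe shared group differences. AREG was closest to GRAMD2A, CDC20 and KLF15 (0.98, 0.98 and 0.976), EREG to FNBP1, AQP5 and ADGRG6 (0.99, 0.988 and 0.988), and HBEGF to DRAM1, SEMA7A and LIF (0.971, 0.968 and 0.964). EGFR was closest to CDC42SE2, RGCC and TMEM131L (0.954, 0.936 and 0.929), ERBB3 to HERC6, IFI6 and SERPINB1 (0.976, 0.965 and 0.946), and ERRFI1 to TFCP2L1, PYGB and PLSCR1 (0.991, 0.991 and 0.99). For TGFA the closest was STING1 (0.946), for NRG1 DNAJA4 (0.933) and for ERBB2 PPP4C (0.87).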

How the data were processed

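RNA was measured in 12 libraries of BEAS-2B cells, 3 each of 4 groups taken from the labels' titles. Per the labels' protocols, each library was made from total RNA by poly(A) isolation and the NEBNext Ultra kit. That kit does not mark strand, so reads of a gene and of an antisense gene overlapping it cannot be told apart. Per the submitters' processing notes, featureCounts was used and the build was hg38. No source used here states the aligner, the annotation or the strand setting. The deposited values are raw counts per gene with no normalisation. A further 6 count columns had no label and were not used here. Symbols came from RefSeq GRCh38.p14 (27745 of 28395 identifiers matched, with 99.943% of counts), and exonic lengths from GENCODE.

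R 4.3.3 with edgeR 4.0.16 and limma 3.58.1 was used. The filter filterByExpr (minimum count 10) kept 13469 genes. A single TMM-scaled model over the 12 libraries was tested by robust quasi-likelihood, p-values were adjusted by Benjamini-Hochberg over all tested genes, and the threshold was 0.05. Standard errors came from the log2 fold change and its F statistic, and 95% intervals from the degrees of freedom of that test. Alternatives were RLE scaling, library size alone, no filter, DESeq2 1.42.0, the replicate block, only the groups compared, and omission of libraries. The alternatives for the lists were chosen after seeing the data. Tables and figures used Python 3.11.15, pandas 2.3.3, scipy 1.17.1 and matplotlib 3.10.9.

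Library totals ran from 5861591 to 19727235 counts. Replicates of a group differed beyond sampling noise (chi-square divided by its degrees of freedom, 5.98 to 18.1). After removal of group means, libraries of the same number correlated at 0.25 to 0.541 in all 18 pairs, over the limit of 0.1, so the numbers were taken to pair the libraries. The rule is this check of the data, since the labels do not say what a number marks. The main test does not use this pairing, and the block is an alternative fit. Replicate 3 is also the deepest library of each group, so its number and its depth cannot be told apart. The common biological coefficient of variation was 0.122, and 0.0577 with the block. The intervals and floors of reads hold for counting error alone, because PCR copies cannot be told from separate molecules without identifiers.

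The members, the gene lists and the naming rule were chosen with earlier results of these data known. All 10 members are named. From the lists, up to 3 genes were eligible per comparison, list and direction, the largest changes first among called genes whose log2 CPM averaged 1 or more, and the scarce family genes were named by their reads. NRG2 was named as the 1 tested gene among them. The directions of IER2 and PLAUR were also given in comparisons where they were outside the first 3.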

Additional observations from a re-analysis of the deposited data

Results flagged for a closer look

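The dexamethasone effect on EGFR differed between cells with and without TGF-β1. It was -0.04 on the log2 scale with TGF-β1 and 0.64 without it, a difference of -0.68 (SE 0.13, adjusted p = 0.0287 by edgeR). Over omissions of single libraries this adjusted p ran from 0.0358 to 0.101 and was above 0.05 in most of them. Dexamethasone libraries were higher than control for all 3 replicate numbers (log2 ratios 0.49, 0.76 and 0.65). With TGF-β1 present, the cells given both were lower for 2 numbers and higher for 1 (-0.06, -0.08 and 0.02). EGFR was the 1 member of 9 tested with such a difference in this fit, and with the replicate block AREG had one as well (-0.77, adjusted p = 0.0133). Groups of 3 libraries are too small for a test of single outlying libraries.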

How the results depend on the processing

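No member called in the main test changed sign under any alternative run. Of 54 member fold changes, RLE scaling, DESeq2 and no filter on low counts each left all 54 on their side of the threshold, and the fit of only the groups compared left all 45 it could give. Over the omissions, 667 values kept side and sign, 13 lost a call, 5 gained one and 17 reversed. The replicate block gained 9 calls and lost 0. Scaling by library size alone gained 4.

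With the block the number of all genes called was 3308 higher and 3433 lower for TGF-β1 against control, 1461 and 1535 for dexamethasone against control, 1275 and 1078 for both against TGF-β1, 3229 and 3498 for both against dexamethasone, and 406 and 238 for the interaction. Members called with the block were 3 higher and 4 lower for both against control, 3 lower for both against TGF-β1 and 2 lower for the interaction (EGFR and AREG). For TGF-β1 against control 5 were lower, with EGFR added (adjusted p = 0.0499). For both against dexamethasone TGFA was added to those lower (adjusted p = 0.0206). With library size alone, calls were 1251 higher and 4332 lower for TGF-β1 against control, 1416 and 5342 for both against control, where 4 members were lower, and 1325 and 4472 for both against dexamethasone. The share of calls that were higher was then 22.4%, 21% and 22.9%, against 49.5%, 50.6% and 49.3% with TMM. DESeq2 called 135 genes higher for the interaction, against 65 by edgeR.

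ERBB2 reversed with library size alone, at -0.16 for TGF-β1, -0.037 for dexamethasone and -0.13 for both against control, and -0.094 for both against dexamethasone. ERBB3 for both against TGF-β1 was -0.003 with the block. Over omissions of a library or of replicate 2 the values ran from -0.28 to 0.14 for TGFA with TGF-β1, -0.214 to 0.012 for TGFA and -0.033 to 0.055 for ERBB2 with dexamethasone, -0.66 to 0.14 for HBEGF with both against control, -0.22 to 0.19 for ERBB3 with both against TGF-β1, and -0.36 to 0.87 for HBEGF and -0.04 to 0.49 for ERBB3 in the interaction. None of these was called in the main test. Members called over omissions ranged from 1 to 2 higher for both against control, 3 to 5 lower for both against dexamethasone and 0 to 1 lower for the interaction, whose calls over all genes ran from 34 to 107 higher and 21 to 68 lower. The causes were not tested. Depth limits BTC, NRG1 and, in dexamethasone libraries, HBEGF.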
